A study of Homo sapiens with 5 samples.

Results

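NR5A1 (steroidogenic factor 1) and 9 further genes of adrenal steroid production were followed in HEK 293T cells exposed to a DNA demethylating drug. The 10 genes were chosen by name, with earlier results of these data known. They were looked up through the RefSeq identifiers of the authors' gene table. Of the 10, 9 had an entry of their own among 20220 usable RefSeq entries, and CYP11A1 had none. They were NR5A1, NR5A2, NR0B1, STAR, SCARB1, CYP17A1, HSD3B2, FDX1 and MC2R.

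RNA was sequenced from 5 libraries. The treated group was 2 libraries of cells given 1 µM 5-aza-CdR (5-aza-2'-deoxycytidine, a cytidine analogue that traps DNA methyltransferases in DNA) for 3 days. The recovery group was 1 library of cells given the same course and then grown for 30 days with no drug, and the control group was 2 libraries of cells grown with no drug. All groups were HEK 293T, a human embryonic kidney line carrying the SV40 large T antigen, which is a single line and not a steroid-producing tissue. The deposited values are FPKM, which are fragment numbers scaled by transcript length and by the total of a library, given as 1 value for each gene and group with the libraries already combined. No SD and no per-library value can therefore be given for any gene.

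The authors' deposited table also gives q-values (p-values after a correction for the many genes tested) of treated against control and of recovery against control. A gene is called here where q was under 0.05, with the direction taken from the FPKM. The table holds no q-value for recovery against treated, so those values are set side by side without a test. Size is also given as the difference of log2(FPKM + 1), which understates the change of genes at low levels.

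NR5A1 is a nuclear receptor that binds a short DNA element as a single molecule and switches on most genes of the steroid pathway in the adrenal cortex and gonads. NR5A2, its closest relative, binds the same element and is best known in liver, pancreas and ovary, while NR0B1 (DAX1) is a partner that represses NR5A1. Steroid synthesis begins when cholesterol enters the cell, partly through the lipoprotein receptor SCARB1, and STAR carries it into mitochondria. There CYP11A1 cleaves its side chain with electrons delivered by the iron-sulphur protein FDX1, and HSD3B2 and CYP17A1 then shape the product into the different hormone classes. In the adrenal cortex the whole programme is driven by the pituitary hormone ACTH through its receptor MC2R and cyclic AMP.

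The authors' deposited table called NR5A1 higher and CYP17A1 lower in treated cells, 1 of the 9 genes in each direction. Over all RefSeq entries 0.603% were called higher and 0.153% lower in treated cells. In recovered cells the authors' deposited table called 1 of the 9 genes higher, NR5A1, and 2 lower, NR5A2 and CYP17A1. The matching shares over all entries were 0.495% higher and 0.247% lower. Because the genes were chosen with earlier results known, these shares give a scale and are not a test of the 9 genes. The median difference of log2(FPKM + 1) over the 9 genes was 0 in each comparison, as it was over all entries. In both comparisons 5 of the 9 genes had a q-value under 1 in the authors' deposited table, and the other 4, NR0B1, STAR, HSD3B2 and MC2R, had a q of 1. A q of 1 stood at 44.3% of all entries for treated cells and at 44.7% for recovered cells in the authors' deposited table, and such entries may not have been tested.

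**Figure D1:**
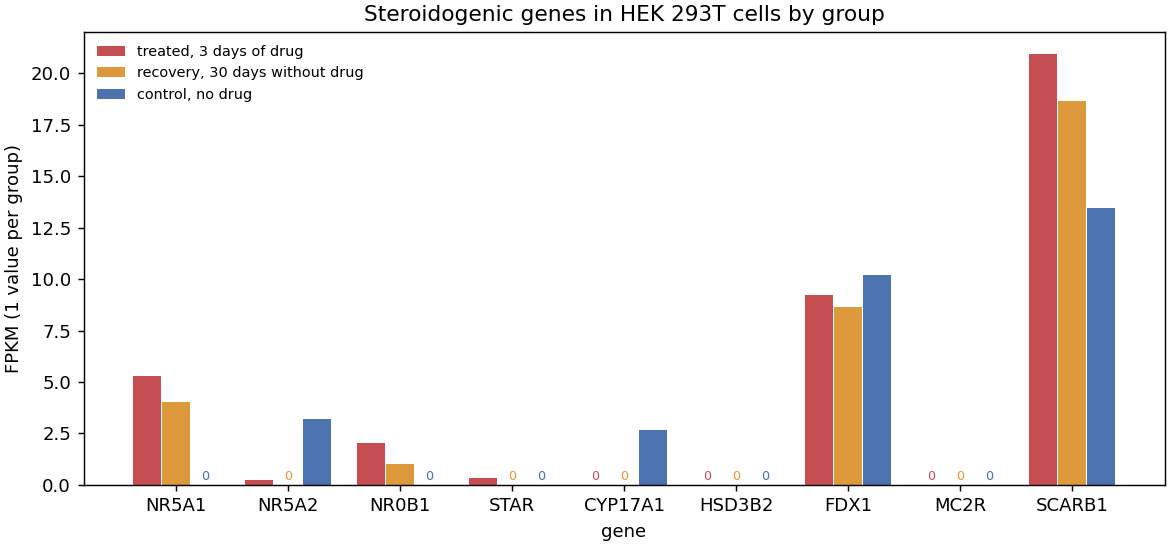
FPKM of the 9 steroidogenic genes that have an entry, with 1 bar for each group in the order treated, recovery and control; a 0 marks a gene listed at 0, and there are no error bars because the libraries were combined. NR5A1 has 5.28 FPKM in treated and 4.02 FPKM in recovered cells with 0 in control cells, NR5A2 and CYP17A1 are highest in control cells, and FDX1 and SCARB1 are present in all groups.

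NR5A1 (NM_004959, chr9:127243515-127269699, hg19) had 5.28 FPKM in treated cells, 4.02 FPKM in recovered cells and was listed at 0 in control cells. It was called higher in both comparisons of the authors' deposited table, with a q of 0.0147 in treated and 0.0147 in recovered cells. That is the lowest q the authors' deposited table holds, and 113 entries share it for treated and 103 for recovered cells. The difference of log2(FPKM + 1) was 2.65 for treated and 2.33 for recovered cells against control. The recovery value was 0.762 times the treated value. In treated cells the NR5A1 level lay above that of 58.8% of RefSeq entries, and in recovered cells above that of 55.3%.

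The libraries come from bulk cultures, so a low level in every cell and a high level in a few cells cannot be told apart for NR5A1 or any other gene. A value of exactly 0 is written here as listed at 0. All 67 ribosomal protein entries and 20 other entries of genes used in every cell were above 0 in every group.

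How many fragments lie behind such values was read from the table itself. Where whole fragments were counted, a gene's FPKM is their number multiplied by what 1 fragment is worth in that group. The smallest whole numbers that give the NR5A1 values were 109 fragments in treated and 41 in recovered cells, where 1 fragment is worth 0.0484 FPKM in treated, 0.0981 FPKM in recovered and 0.0640 FPKM in control cells. At the treated FPKM, control cells would have shown 82.5 fragments on that scale, against the 0 listed. A multiple of these numbers gives the same FPKM, and for SCARB1 the search found no whole numbers. Of 1208 entries above 50 FPKM in treated and recovered cells, which hold too many fragments for a true match, 4.88% were matched by as few recovery fragments. By the same steps the depth of the treated group was 1.32 times and that of the recovery group 0.652 times the depth of the control group, so the recovery group is the shallowest.

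The calls of the table lie largely in entries listed at 0 in 1 group. Of the 122 entries called higher in treated cells in the authors' deposited table, 106 were listed at 0 in control, as NR5A1 was. Of the 31 called lower there in the authors' deposited table, 22 were listed at 0 in treated cells, as CYP17A1 was. For recovery the authors' deposited table has 96 of 100 called higher at 0 in control and 47 of 50 called lower at 0 in recovery. A start at 0 was not enough for a call: 32.8% of the entries at 0 in control were above 0 in treated cells, while 1.40% of the entries at 0 in control were called higher in the authors' deposited table. No entry below 1.93 FPKM in treated cells was called higher there in the authors' deposited table, and 5.28 FPKM of NR5A1 lies above that level.

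**Figure D2:**
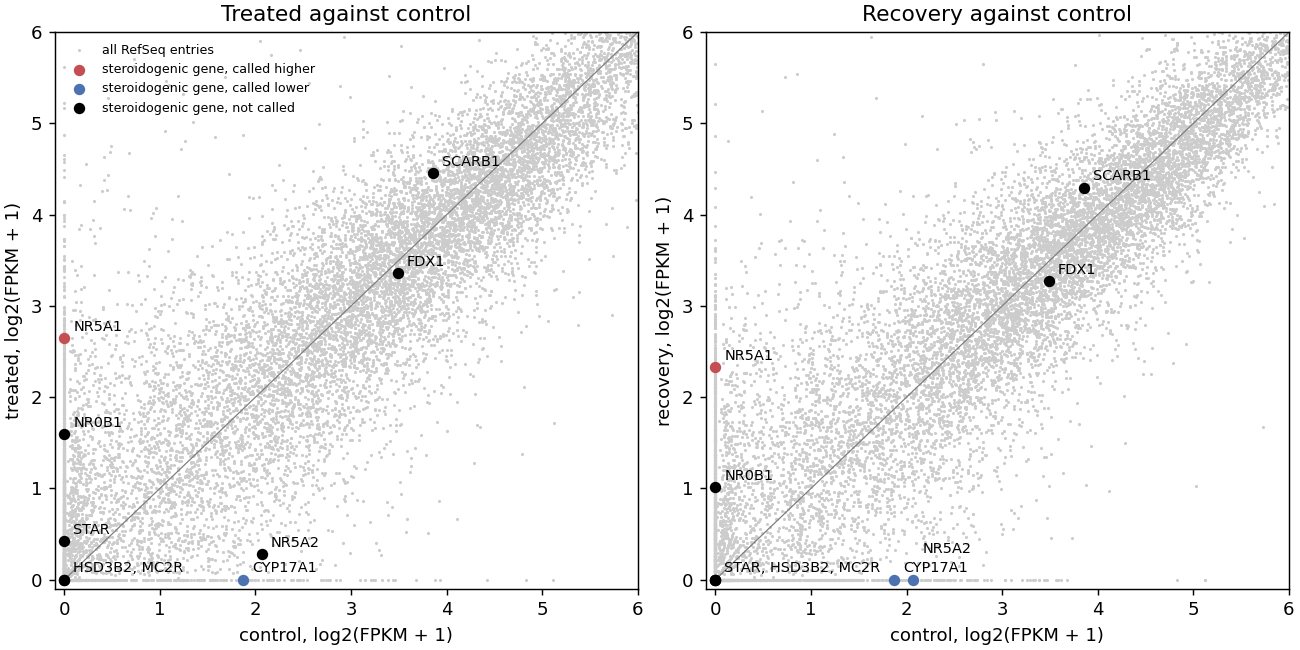
Levels of all RefSeq entries (grey) and of the 9 steroidogenic genes on a log2(FPKM + 1) scale, with treated (left) and recovery (right) on the vertical axes and control on the horizontal axes; both axes stop at 6, so higher entries are not drawn. NR5A1 lies on the left edge, listed at 0 in control, in both panels, CYP17A1 lies on the lower edge in both, and FDX1 and SCARB1 lie in the cloud around the diagonal.

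NR5A2 (NM_001276464, chr1:199996730-200146550, hg19) had the opposite order of levels. It had 0.214 FPKM in treated cells, was listed at 0 in recovered cells and had 3.20 FPKM in control cells. The treated level was 0.0671 times the control level, with a q of 0.893 in the authors' deposited table, so this difference did not pass. The recovery difference did, with a q of 0.0147 in the authors' deposited table. The differences of log2(FPKM + 1) were -1.79 for treated and -2.07 for recovered cells against control. In recovered cells NR5A1 had 4.02 FPKM and NR5A2 was listed at 0, and in control cells NR5A1 was listed at 0 and NR5A2 had 3.20 FPKM. The recovery group is 1 library and the shallowest, so a level as low as 0.214 FPKM may be missed there. Treated cells held both, with 5.28 FPKM of NR5A1 and 0.214 FPKM of NR5A2.

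NR0B1 (NM_000475, chrX:30322539-30327495, hg19), the repressor partner, shared the order of NR5A1 but not its call. It had 2.02 FPKM in treated cells, 1.03 FPKM in recovered cells and was listed at 0 in control cells, with a q of 1 in both comparisons of the authors' deposited table. The smallest whole numbers behind these values were 4 fragments in treated and 1 in recovered cells. Control cells would have shown 3.03 fragments at the treated FPKM on that scale. These are the smallest numbers possible, and the true ones may be several times larger. At these numbers 1 fragment in treated cells would be worth 0.506 FPKM for NR0B1, against 0.0484 FPKM for NR5A1. That worth depends on transcript length, which the search did not use. By the same search 0.166% of entries above 50 FPKM were matched by 1 recovery fragment.

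RefSeq promoter windows, of 250 bases before to 50 bases after a gene start on GRCh38.p14, were available for 8 of the 10 genes. They are shown because the drug acts on CpG methylation and because NR5A1, NR0B1, NR5A2 and CYP17A1 were each listed at 0 in at least 1 group and above 0 in another. Each line holds the 250 bases before the start, 5′ to 3′ on the gene's own strand, with every CpG dinucleotide in capitals. The regions are chr9:124507400-124507649 (minus strand) for NR5A1 and chrX:30309391-30309640 (minus strand) for NR0B1. NR5A2 has 2 annotated starts, with chr1:200027460-200027709 (plus strand) before the first and chr1:200042341-200042590 (plus strand) before the second. The region of CYP17A1 is chr10:102837414-102837663 (minus strand).
NR5A1: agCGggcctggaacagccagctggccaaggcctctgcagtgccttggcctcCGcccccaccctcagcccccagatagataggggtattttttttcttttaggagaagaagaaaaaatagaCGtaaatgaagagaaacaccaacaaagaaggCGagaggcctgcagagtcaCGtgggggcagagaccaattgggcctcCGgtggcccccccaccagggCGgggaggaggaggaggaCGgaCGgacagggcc
NR0B1: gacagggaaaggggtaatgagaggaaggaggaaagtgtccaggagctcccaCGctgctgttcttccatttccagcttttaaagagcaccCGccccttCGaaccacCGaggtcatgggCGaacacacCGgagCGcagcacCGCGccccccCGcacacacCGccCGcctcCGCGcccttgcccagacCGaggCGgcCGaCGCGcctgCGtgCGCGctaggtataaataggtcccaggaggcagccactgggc
NR5A2, first start: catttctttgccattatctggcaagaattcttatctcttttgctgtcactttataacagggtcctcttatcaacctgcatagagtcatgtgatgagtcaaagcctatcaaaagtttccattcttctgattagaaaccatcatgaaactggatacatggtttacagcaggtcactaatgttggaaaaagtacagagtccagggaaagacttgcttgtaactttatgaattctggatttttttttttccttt
NR5A2, second start: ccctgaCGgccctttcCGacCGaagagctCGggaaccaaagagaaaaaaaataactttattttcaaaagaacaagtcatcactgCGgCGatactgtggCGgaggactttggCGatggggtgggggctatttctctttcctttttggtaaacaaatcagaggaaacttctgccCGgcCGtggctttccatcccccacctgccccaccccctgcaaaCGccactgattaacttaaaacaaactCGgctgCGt
CYP17A1: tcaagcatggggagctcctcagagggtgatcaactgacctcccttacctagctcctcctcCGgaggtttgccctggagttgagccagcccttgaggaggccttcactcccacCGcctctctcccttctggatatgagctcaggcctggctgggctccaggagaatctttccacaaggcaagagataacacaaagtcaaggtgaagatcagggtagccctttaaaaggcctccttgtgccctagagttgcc
The whole NR5A1 window of 300 bases held 14 CpG, the median of all 35116 windows, and 49.7% of windows held fewer. NR0B1 had 28, more than 73.8% of windows. NR5A2 had 0 at its first start and 16 at its second, where 52.5% of windows held fewer. CYP17A1 had 3, and 18.2% of windows held fewer. NR5A1, called higher, and NR0B1, not called, had more CpG than CYP17A1, called lower. NR5A2, highest in control cells, had 1 start with more CpG than CYP17A1 and 1 with fewer. These are single genes, and a link between CpG number and the direction of a difference was not tested. FDX1, present in all groups, had 24 CpG in its window, and the genes listed at 0 in all groups had few, with 1 in HSD3B2 and 4 and 0 at the 2 starts of MC2R. CYP11A1 had 5. CpG methylation itself was not measured in the values used here.

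**Figure D3:**
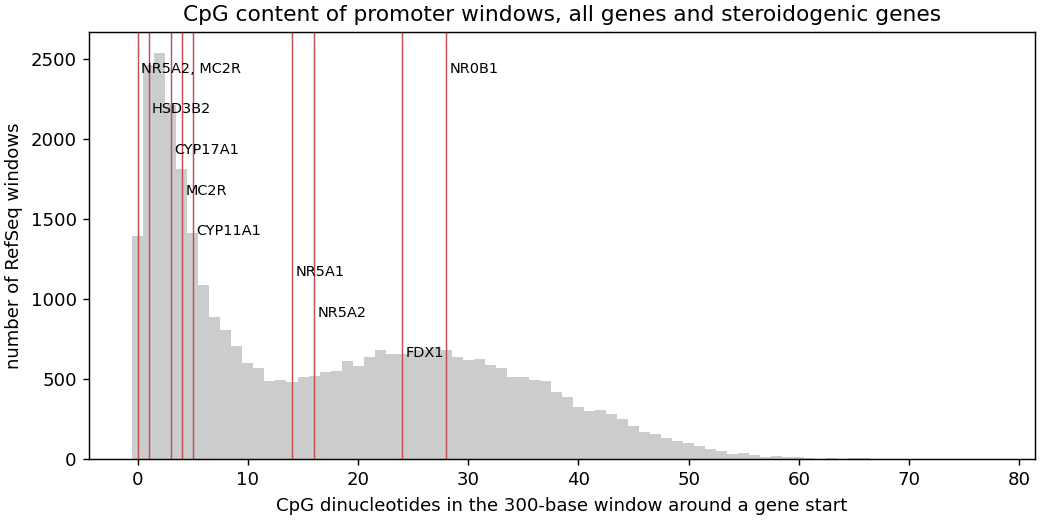
Number of CpG dinucleotides in the 300-base RefSeq promoter windows; the grey bars count all 35116 windows and the red lines mark the 10 windows of the 8 steroidogenic genes that have one. NR5A1, at 14 CpG, sits in the dip between CpG-poor windows and CpG-rich windows, with CYP17A1 at 3 to its left and NR0B1 at 28 to its right.

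The element that NR5A1 and NR5A2 bind has the core AGGTCA, searched on both strands. It was found in the windows of 4 of the 8 genes, against 13.8% of all windows. The first count is by gene and the second by window: the 8 genes have 10 windows, and NR5A2 held the core at its first start only. The 4 stretches are given 5′ to 3′ on the gene's strand with the core in capitals, and the CYP17A1 core lies on the other strand and so reads TGACCT. They lie at chrX:30309518-30309543 (minus strand) in NR0B1, chr1:200027616-200027641 (plus strand) at the first start of NR5A2, chr10:102837614-102837639 (minus strand) in CYP17A1 and chr11:110429922-110429947 (plus strand) in FDX1, all on GRCh38.p14.
NR0B1: cgaaccaccgAGGTCAtgggcgaaca
NR5A2: ggtttacagcAGGTCActaatgttgg
CYP17A1: ggtgatcaacTGACCTcccttaccta
FDX1: atgtctttatAGGTCAcccggaaggc
The core began 143 bases before the start in NR0B1, 84 in NR5A2, 216 in CYP17A1 and 16 in FDX1. The longer form CAAGGTCA was in 1.28% of windows and in 0 of the 8. Only these exact letters were searched, so sites that differ by a letter were not counted in any gene, CYP11A1 and MC2R included. The NR5A1 window held no AGGTCA. It held the E-box CACGTG beginning 82 bases before the start, a motif found in 7.26% of windows and in no other of the 8 genes. It also held CCAAT on both strands, in 2 overlapping matches that begin 66 and 63 bases before the start, and the GC box GGGCGG. Of all windows 34.6% held CCAAT and 45.0% held GGGCGG. A match only describes these letters and is not evidence of binding.

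Of the genes that bring cholesterol in, SCARB1 (NM_001082959, chr12:125262174-125348519, hg19) had the highest level of the 9 genes in every group. It had 21.0 FPKM in treated, 18.7 FPKM in recovered and 13.5 FPKM in control cells. The treated level was 1.55 times and the recovery level 1.38 times the control level. Neither difference passed in the authors' deposited table, with a q of 0.939 for treated and 0.958 for recovered cells. STAR (NM_000349, chr8:38000218-38008600, hg19), which moves cholesterol into mitochondria, had 0.337 FPKM in treated cells and was listed at 0 in recovered and in control cells. Its q was 1 in both comparisons of the authors' deposited table.

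CYP17A1 (NM_000102, chr10:104590288-104597290, hg19), the enzyme that opens the way to cortisol and androgens, was listed at 0 in treated and in recovered cells and had 2.66 FPKM in control cells. It was called lower in both comparisons of the authors' deposited table, with a q of 0.0239 in treated and 0.0239 in recovered cells. The difference of log2(FPKM + 1) was -1.87 in each. Of the 292 entries at 0 in treated and above 0 in control cells, 7.53% were called lower in the authors' deposited table. Of the 563 such entries for recovery, 8.35% were called lower in the authors' deposited table. CYP17A1 and NR5A2 had similar control levels, 2.66 and 3.20 FPKM, and differed in treated cells, where CYP17A1 was listed at 0 and NR5A2 had 0.214 FPKM. For treated cells the q in the authors' deposited table was 0.0239 for CYP17A1 and 0.893 for NR5A2, and what sets these apart was not tested.

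HSD3B2 (NM_000198, chr1:119957554-119965662, hg19), the adrenal and gonadal form of 3β-hydroxysteroid dehydrogenase, was listed at 0 in all 3 groups. FDX1 (NM_004109, chr11:110300661-110335608, hg19), which serves every mitochondrial steroid hydroxylase and other iron-sulphur reactions, had 9.25 FPKM in treated, 8.65 FPKM in recovered and 10.2 FPKM in control cells. The treated level was 0.905 times and the recovery level 0.846 times the control level, and the q in the authors' deposited table was 0.998 for treated and 0.995 for recovered cells. The smallest whole numbers behind the FDX1 values were 195 fragments in treated, 90 in recovered and 163 in control cells. Of 1082 entries above 50 FPKM in all groups, 1.85% were matched by as few recovery fragments.

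CYP11A1, the side-chain cleavage enzyme, has no entry of its own in the table. Its place on chromosome 15 is covered by an entry named for PPIAP46, a pseudogene that lies inside CYP11A1 in the RefSeq gene table (NR_045207, chr15:74630103-74660081, hg19). The entry spans 29979 bases, close to the 29885 bases of CYP11A1. It was listed at 0 in treated cells and had 2.95 FPKM in recovered and 0.640 FPKM in control cells, with a q of 1 for treated and 0.988 for recovered cells in the authors' deposited table. These values cannot be assigned to CYP11A1. MC2R (NM_000529, chr18:13882043-13915535, hg19), the ACTH receptor, was listed at 0 in all 3 groups.

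By level, the 9 genes ran in treated cells from SCARB1 at 21.0 FPKM through FDX1 at 9.25, NR5A1 at 5.28, NR0B1 at 2.02, STAR at 0.337 and NR5A2 at 0.214 FPKM to 3 genes listed at 0. In recovered cells the order was SCARB1 at 18.7 FPKM, FDX1 at 8.65, NR5A1 at 4.02 and NR0B1 at 1.03 FPKM, with 5 genes listed at 0. In control cells it was SCARB1 at 13.5 FPKM, FDX1 at 10.2, NR5A2 at 3.20 and CYP17A1 at 2.66 FPKM, with 5 genes listed at 0. Over all RefSeq entries, 26.6% were listed at 0 in treated, 32.4% in recovered and 37.4% in control cells. Whether neighbours in these orders differ beyond the spread between libraries cannot be read from combined values.

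The authors' deposited table also carries a mark for DNA methylation, whose meaning its header leaves unexplained, with the value affected or none. Of the 9 genes, NR5A2 and CYP17A1 were marked affected in the authors' deposited table, the 2 that were called lower in at least 1 comparison, and NR5A1 was not. Over all entries 14.1% carry the mark in the authors' deposited table. Among entries called higher in treated cells 24.6% carry it and among those called lower 9.68% do, in the authors' deposited table. For recovery the shares in the authors' deposited table were 17% of those called higher and 18% of those called lower.

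The entries beside the 9 genes give the levels of the wider region. Below NR5A1, at a distance of 65.8 kb, LOC100129034 had 3.86 FPKM in treated, 2.96 FPKM in recovered and 2.17 FPKM in control cells, with a q of 0.984 for treated and 0.997 for recovered cells in the authors' deposited table. Above it, at 9.85 kb, the entry named for MIR181A2HG, the host transcript of a miR-181 cluster, had 1.35 FPKM in treated and 3.41 FPKM in recovered cells and was listed at 0 in control cells. Its q was 1 for treated and 0.935 for recovered cells in the authors' deposited table. Both neighbour entries run far past the gene they are named for. The first spans 62009 bases, close to the 61978 bases of the proteasome gene PSMB7, and the second spans 254036 bases, close to the 254037 bases of the nuclear receptor gene NR6A1. Neither PSMB7 nor NR6A1 has an entry of its own, so these values cannot be assigned to a single gene. The span of each of the 9 steroidogenic entries, in contrast, was between 0.956 and 1.02 times that of its gene in the RefSeq gene table, and none overlaps a coding gene that lacks an entry.

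The nearest lower entry to NR5A2, at 1090 kb, was MIR181A1HG, the host of the second miR-181 cluster. It had 4.17 FPKM in treated cells, was listed at 0 in recovered cells and had 9.19 FPKM in control cells, with a q of 0.981 for treated and 0.117 for recovered cells in the authors' deposited table. LINC00862, on the other side of NR5A2, was listed at 0 in all groups. Of the 18 neighbour entries of the 9 genes, 1 was called in the authors' deposited table, where 0.757% of all entries were called for treated and 0.742% for recovered cells. This was MAGEB1, a cancer-testis antigen gene of the X chromosome 52.4 kb from NR0B1, whose entry overlaps the related MAGEB4. It had 9.67 FPKM in treated cells and was listed at 0 in recovered and in control cells, with a q of 0.0147 for treated and 1 for recovered cells in the authors' deposited table. At 30 days MAGEB1 was listed at 0 and NR0B1 had 1.03 FPKM, which may rest on few fragments in 1 library. The difference between the 2 genes was not tested.

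CYP17A1 lies between WBP1L and BORCS7, both expressed in all groups. WBP1L had 12.5 FPKM in treated, 8.21 FPKM in recovered and 8.34 FPKM in control cells. The entry named for BORCS7, at 16.7 kb and 4.46 times as long as that gene, had 23.7 FPKM in treated, 33.0 FPKM in recovered and 56.3 FPKM in control cells, with a q of 0.296 for treated and 0.875 for recovered cells in the authors' deposited table. HSD3B1, the placental form of the enzyme and the next entry to HSD3B2, was listed at 0 in all groups. Within 100 kb of the 9 genes the authors' separate lncRNA table has 12 entries, of which 0 overlap one of the genes and 7 were listed at 0 in all groups. None of the 12 was called in the authors' deposited table, where 2.87% of all lncRNA entries were called for treated and 3.12% for recovered cells.

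**Figure D4:**
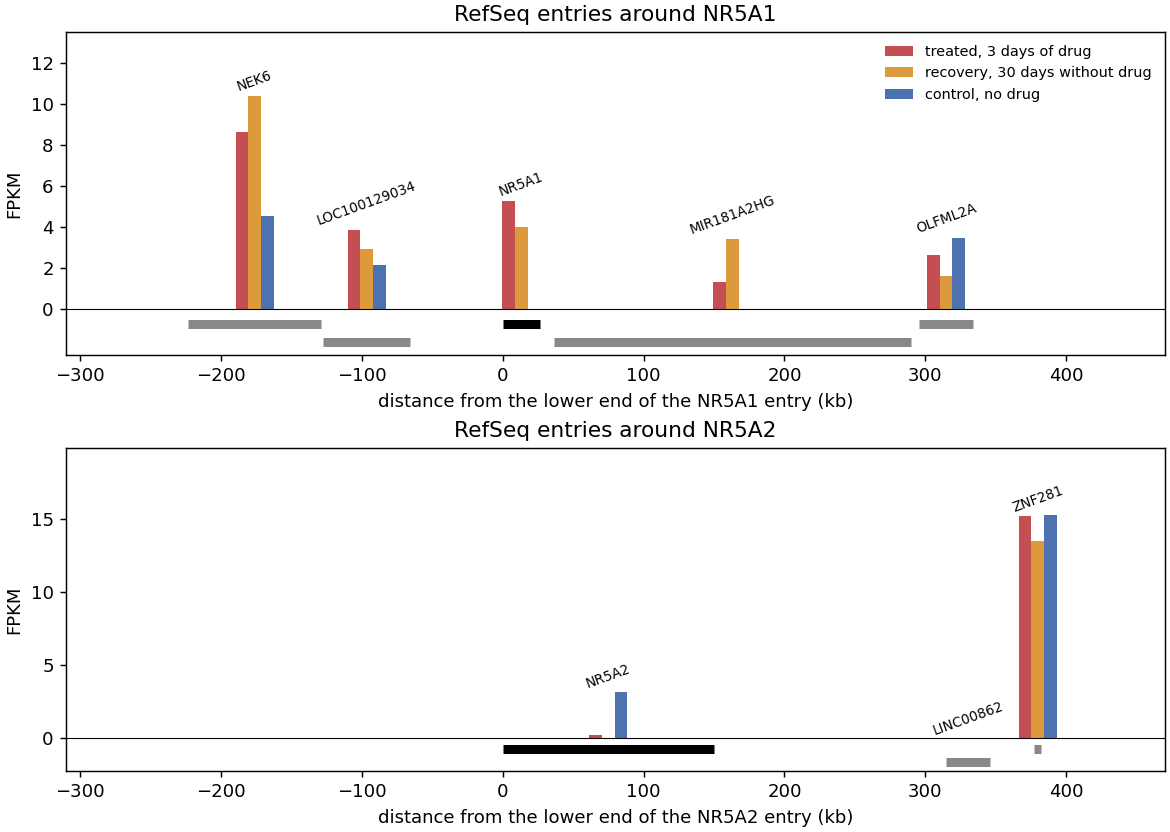
RefSeq entries within 300 kb of NR5A1 (top) and NR5A2 (bottom), drawn by distance in kb from the lower end of each gene; the horizontal bars are the spans of the entries (black for NR5A1 and NR5A2) and the upright bars are FPKM in treated, recovery and control. NR5A1 and the entry named for MIR181A2HG are above 0 in treated and recovered cells only, while NR5A2 has 3.20 FPKM in control cells beside a neighbour, LINC00862, listed at 0.

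Which entries had the pattern most like NR5A1 was asked among those called higher in both comparisons, by the distance of log2(FPKM + 1) over the 3 groups. Among the nearest were RFPL4B, MFNG, GATA3-AS1 and CT55, at distances of 0.05 to 0.28 on the log2 scale, and these 4 were listed at 0 in control cells. RFPL4B had 5.36 FPKM in treated and 4.18 FPKM in recovered cells. MFNG, a glycosyltransferase that modifies Notch receptors, had 4.94 FPKM in treated and 3.83 FPKM in recovered cells. GATA3-AS1, an RNA read from the opposite strand at GATA3 and uncertain because strand use in the counting is not stated, had 4.36 FPKM in treated and 4.08 FPKM in recovered cells, and CT55, a cancer-testis antigen, had 6.62 FPKM in treated and 3.90 FPKM in recovered cells. With 3 values for each entry, the likeness rests on the calls, the 0 in control and a recovery level somewhat below the treated one.

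Lists of other genes of the pathway held 162 measured genes besides the 9. None was called in treated cells in the authors' deposited table, against 0.757% of all entries called in either direction. In recovered cells 1 was called in the authors' deposited table, 0.617% of the 162, against 0.742% of all entries. That gene was AKR1C1, a reductase that inactivates progesterone, with 1.66 FPKM in treated cells, 4.58 FPKM in recovered cells and 0 listed in control cells. Its q was 1 for treated and 0.0465 for recovered cells in the authors' deposited table. AKR1C1 has near-identical paralogs among which reads can be divided in more than 1 way, so its value is uncertain. In the RefSeq gene table HSD17B12, STS, CYB5R3, VDAC1, PRKACA, LHB, NR3C1 and NR1D2 each overlap a coding gene that has no entry here, and their values may include it. Counts of calls in the single lists below are to be read against the same shares over all entries.

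**Figure D5:**
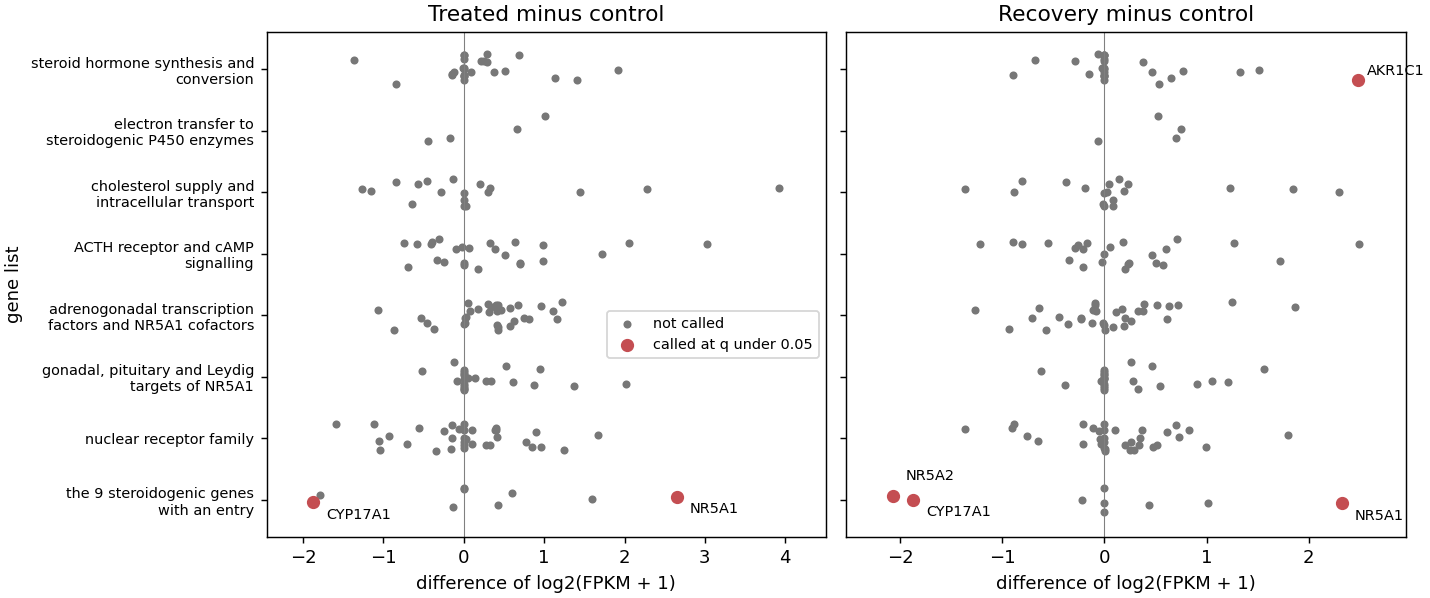
Differences of log2(FPKM + 1) for the genes of 7 pathway lists and, in the lowest line, for the 9 steroidogenic genes, with treated minus control on the left and recovery minus control on the right; each point is a gene, shifted up or down at random for visibility, and red points were called at q under 0.05 in the authors' deposited table. The called genes are NR5A1 and CYP17A1 on the left and AKR1C1, NR5A1, NR5A2 and CYP17A1 on the right.

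Among 26 measured genes of steroid synthesis and conversion, 9 were listed at 0 in all groups. These included the adrenal enzymes CYP11B1, CYP11B2 and CYP21A2, which finish cortisol and aldosterone synthesis. The genes at the highest levels were broadly used ones: HSD17B12 had 76.4 FPKM in treated, 52.2 FPKM in recovered and 64.1 FPKM in control cells, and HSD17B4, a peroxisomal enzyme, had 59.5 FPKM in treated, 59.2 FPKM in recovered and 60.0 FPKM in control cells. PAPSS2, which makes the sulphate donor, had 19.7 FPKM in treated, 15.3 FPKM in recovered and 16.0 FPKM in control cells. STS, steroid sulphatase, had 8.42 FPKM in treated, 6.16 FPKM in recovered and 1.50 FPKM in control cells. Its treated level was 5.62 times and its recovery level 4.11 times the control level, with a q of 0.243 for treated and 0.517 for recovered cells in the authors' deposited table. The median difference of log2(FPKM + 1) in this list was 0 for both comparisons.

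The 4 measured electron carriers were present in all groups and none was called in the authors' deposited table. FDXR, the reductase that feeds FDX1, had 27.0 FPKM in treated, 28.8 FPKM in recovered and 16.7 FPKM in control cells, with a q of 0.939 for treated and 0.927 for recovered cells in the authors' deposited table. CYB5A, which aids the lyase reaction of CYP17A1, had 29.0 FPKM in treated, 53.9 FPKM in recovered and 32.8 FPKM in control cells. CYB5B had 27.5 FPKM in treated, 36.1 FPKM in recovered and 37.8 FPKM in control cells. CYB5R3 had 24.3 FPKM in treated, 17.0 FPKM in recovered and 11.5 FPKM in control cells. The list's median difference was 0.24 for treated and 0.61 for recovered cells, on the log2(FPKM + 1) scale.

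None of 18 measured genes of cholesterol supply and transport was called in the authors' deposited table. NPC2, which hands cholesterol out of lysosomes, had the largest treated difference of log2(FPKM + 1) in the list, with 693 FPKM in treated, 106 FPKM in recovered and 44.7 FPKM in control cells. That is 15.5 times the control level in treated and 2.37 times in recovered cells, and the q in the authors' deposited table was 0.926 for treated and 0.553 for recovered cells. ABCA1, a cholesterol exporter, had 1.88 FPKM in treated, 4.19 FPKM in recovered and 0.0539 FPKM in control cells. TSPO, an outer mitochondrial membrane protein, had 38.5 FPKM in treated, 99.1 FPKM in recovered and 86.9 FPKM in control cells. VDAC1, the outer membrane channel, had 143 FPKM in treated, 99.6 FPKM in recovered and 114 FPKM in control cells. APOE had 3.86 FPKM in treated and 2.61 FPKM in recovered cells and was listed at 0 in control cells, with a q of 0.0953 for treated and 0.296 for recovered cells in the authors' deposited table. The list's median difference on the log2(FPKM + 1) scale was 0 for treated and 0.04 for recovered cells.

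Of 25 measured genes of ACTH and cyclic AMP signalling none was called in the authors' deposited table, and none was listed at 0 in all groups. GNAS, the stimulatory G protein subunit that couples MC2R to cyclic AMP, had 390 FPKM in treated, 306 FPKM in recovered and 373 FPKM in control cells. CREM had 22.7 FPKM in treated, 22.5 FPKM in recovered and 28.8 FPKM in control cells, and the related factor ATF1 had 19.0 FPKM in treated, 22.3 FPKM in recovered and 22.7 FPKM in control cells. NR4A1, an immediate-early nuclear receptor induced by ACTH in adrenal cells, had 9.10 FPKM in treated, 5.97 FPKM in recovered and 0.239 FPKM in control cells. Its ratio to control was 38.2 in treated and 25.0 in recovered cells, with a q of 0.928 in each comparison of the authors' deposited table. PRKACA, a catalytic subunit of protein kinase A, had 8.22 FPKM in treated, 4.37 FPKM in recovered and 1.22 FPKM in control cells, with a q of 0.807 for treated and 0.927 for recovered cells in the authors' deposited table. The median difference on the log2(FPKM + 1) scale was 0.07 for treated and 0.06 for recovered cells.

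Transcription factors that act with NR5A1 in the adrenal and gonad, 32 of them measured, held no call in the authors' deposited table, and none was listed at 0 in all groups. WT1 had 4.86 FPKM in treated, 2.55 FPKM in recovered and 4.82 FPKM in control cells, and GATA4 had 3.36 FPKM in treated, 2.39 FPKM in recovered and 3.35 FPKM in control cells. Both act upstream of or beside NR5A1 in the early gonad, and both were present in the control cells where NR5A1 was listed at 0. They were picked for that reason after their values were seen. CITED2, a coactivator that raises NR5A1 in the mouse adrenal primordium, had 52.0 FPKM in treated, 45.5 FPKM in recovered and 41.8 FPKM in control cells. CTNNB1 (beta-catenin) had 187 FPKM in treated, 185 FPKM in recovered and 164 FPKM in control cells, and SP1 had 41.5 FPKM in treated, 29.6 FPKM in recovered and 40.6 FPKM in control cells. LHX2 had 4.24 FPKM in treated, 4.36 FPKM in recovered and 1.25 FPKM in control cells, and SOX9, which acts with NR5A1 in the testis, had 4.35 FPKM in treated, 2.66 FPKM in recovered and 1.39 FPKM in control cells. This list's median difference on the log2(FPKM + 1) scale was 0.40 for treated and 0.00 for recovered cells.

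Gonadal, pituitary and Leydig cell targets of NR5A1 held no call among 23 measured genes in the authors' deposited table, and 9 of the 23 were listed at 0 in all groups. CGA, the alpha subunit of the pituitary glycoprotein hormones, had 99.1 FPKM in treated, 152 FPKM in recovered and 50.8 FPKM in control cells, with a q of 0.865 for treated and 0.216 for recovered cells in the authors' deposited table. CGA was thus present in control cells, where NR5A1 was listed at 0. LHB, the beta subunit of luteinising hormone and a member of a family of near-identical copies whose reads can be split, had 3.04 FPKM in treated and 0.881 FPKM in recovered cells and was listed at 0 in control cells. INHA, the inhibin alpha subunit, had 1.59 FPKM in treated and 0.461 FPKM in recovered cells and was listed at 0 in control cells. AKR1B1 had 36.7 FPKM in treated, 36.7 FPKM in recovered and 30.2 FPKM in control cells, and INHBB had 3.83 FPKM in treated, 5.29 FPKM in recovered and 4.25 FPKM in control cells. The list's median difference on the log2(FPKM + 1) scale was 0 in both comparisons.

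Of 40 other nuclear receptors in a list, 34 were measured, and none of these was called in the authors' deposited table. Over all entries 0.757% were called for treated and 0.742% for recovered cells. At such shares a list this short can easily hold no call, so the calls of NR5A1 and NR5A2 do not set them apart from the family. NR2E1 was in the lists for its treated difference, with 2.43 FPKM in treated, 2.73 FPKM in recovered and 0.0766 FPKM in control cells, and a q of 0.939 in each comparison of the authors' deposited table. HNF4G, a receptor of gut and kidney, was in them for the same reason, with 0.684 FPKM in treated, 1.75 FPKM in recovered and 4.09 FPKM in control cells, and a q of 0.876 for treated and 0.934 for recovered cells in the authors' deposited table. NR3C1, the glucocorticoid receptor, had 25.8 FPKM in treated, 36.8 FPKM in recovered and 28.7 FPKM in control cells. NR2F6 had 43.2 FPKM in treated, 35.4 FPKM in recovered and 22.7 FPKM in control cells, and NR1D2 had 17.3 FPKM in treated, 28.2 FPKM in recovered and 28.8 FPKM in control cells.

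Marker lists were read as a check of the cells. Of 10 measured genes of the embryonic kidney line none was listed at 0 in all groups. PAX2 and CDH1 were listed at 0 in recovered and in control cells. In treated cells PAX2 had 0.146 FPKM and CDH1 had 1.09 FPKM. The summed level of the 10 genes was 737 FPKM in treated, 552 FPKM in recovered and 610 FPKM in control cells. Most of each sum came from the entries named for KRT18 and VIM. The entry named for KRT18, which also overlaps KRT8, had 418 FPKM in treated, 214 FPKM in recovered and 231 FPKM in control cells, and the entry named for VIM, which spans 23355 bases against 9353 for that gene, had 181 FPKM in treated, 246 FPKM in recovered and 316 FPKM in control cells. KRT19 had 98.7 FPKM in treated, 54.1 FPKM in recovered and 29.9 FPKM in control cells, with a q of 0.0761 for treated cells in the authors' deposited table. The kidney progenitor factor SIX2 had 9.83 FPKM in treated, 5.23 FPKM in recovered and 0.853 FPKM in control cells. The markers of adrenal cortex are the 9 genes themselves. Of these, HSD3B2 and MC2R were listed at 0 in all groups, and SCARB1 and FDX1 were present in all groups. NR5A1 and NR0B1 were above 0 in treated and recovered cells only, STAR in treated cells only and CYP17A1 in control cells only. NR5A2 was above 0 in treated and control cells.

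Of 9 measured genes of adrenal medulla and neural cells, 2 were called higher in treated cells in the authors' deposited table, where 0.603% of all entries were. The list was written with earlier results of these data known, so that share is not a test of it. NEFM, a neurofilament, had 4.79 FPKM in treated and 0.0924 FPKM in recovered cells and was listed at 0 in control cells. NEFH had 4.82 FPKM in treated and 1.21 FPKM in recovered cells and was listed at 0 in control cells, and both had a q of 0.0147 for treated and 1 for recovered cells in the authors' deposited table. Their treated levels were near that of NR5A1 and their recovery levels below it, a difference that was not tested. NEFL had 22.2 FPKM in treated, 30.6 FPKM in recovered and 28.9 FPKM in control cells, and the 9 genes summed to 34.0 FPKM in treated, 36.2 FPKM in recovered and 29.6 FPKM in control cells. Of the markers that define the adrenal medulla, DBH was listed at 0 in all groups and TH had 0.347 FPKM in treated cells and 0 listed in recovered and control cells. PNMT, the last enzyme of adrenaline synthesis, had 1.13 FPKM in treated and 3.20 FPKM in recovered cells and was listed at 0 in control cells, and none of DBH, TH and PNMT was called in the authors' deposited table. The part of these markers in the NR5A1 result was not tested.

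Markers of blood, fibroblasts and endothelium held no call in the authors' deposited table. The 7 fibroblast markers summed to 6.99 FPKM in treated, 12.8 FPKM in recovered and 10.3 FPKM in control cells. The 6 endothelial markers summed to 2.57 FPKM in treated, 2.08 FPKM in recovered and 0.802 FPKM in control cells.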

How the data were processed

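RNA was depleted of ribosomal RNA and made into strand-marked libraries, per the labels' protocols. Per the submitters' processing notes the tools were Cufflinks and Cuffdiff, with no versions, and the builds were mm9 and hg19. Human coordinates are read as hg19, and the aligner is not given in the sources used here. Values were deposited by the authors as FPKM, 1 value per gene and group, together with q-values (adjusted p-values) against control with yes or no calls, per the file headers. Total counts per library are not in these values, so depth was read only as relative steps.

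Of 20221 RefSeq entries 1 had a broken exponent and was left out, as were 2 lncRNA entries, which left 21625. Of the 20220 kept, 19665 matched a symbol in NCBI's RefSeq gene table (GRCh38.p14, names only). Promoter windows are RefSeq's on that build. Coordinates are 1-based.

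The members and lists were chosen with earlier results of these data known. No test was added, because combined values leave no spread between libraries, and nothing says whether the libraries came from separate cultures. The calls are the authors' at q under 0.05. The pseudocount was 1. Named genes are the 10 members, every called gene of a list, the 3 of highest mean FPKM and the 2 with the largest treated difference in each list, the 5 patterns nearest to NR5A1, its neighbours and any called neighbour; some of these genes are not reported here. WT1, GATA4, MIR181A1HG, the neighbours LINC00862, WBP1L, BORCS7 and HSD3B1, the enzymes CYP11B1, CYP11B2 and CYP21A2, the transporter ABCA1 and the markers TH, DBH and PNMT were added after their values were seen. The markers PAX2 and CDH1 were added likewise. Fragment numbers were searched up to 200 recovery fragments with a relative tolerance of 4e-06, on steps tested on simulated data. The simulation drew 1 count per gene and group, whereas the treated and control values combine 2 libraries, which need not leave whole fragments. Near the step of treated over recovery lay 157 of 13183 entries, and near that of recovery over control 115 of 12095. Python 3.11.15, numpy 2.4.6, pandas 2.3.3 and matplotlib 3.10.9 were used. The alternatives were q under 0.01 and 0.10, pseudocounts of 0.1 and 0.5, a mean of 0.5 FPKM or more, and quantile and median scaling. Fits that leave out a library, or that pair libraries, were not run because only group values were deposited.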

Additional observations from a re-analysis of the deposited data

How the results depend on the processing

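At q under 0.01 the members called fell to 0 in treated and 0 in recovered cells, against 2 and 3 at q under 0.05, since the q of NR5A1 was 0.0147 for treated and 0.0147 for recovered cells, the lowest in the authors' deposited table. At q under 0.10 the counts were again 2 and 3, while the list genes called were 5, against 3, with KRT19 and APOE added. With only the 6 members at a mean of 0.5 FPKM or more, the members' median difference on the log2(FPKM + 1) scale moved to 0.24 for treated and 0.11 for recovered cells, against 0 for all 9, and those medians rest on fewer genes. The NR5A1 difference ran between 2.63 and 5.75 on the log2 scale for treated and between 2.31 and 5.36 for recovered cells over the pseudocounts and scalings. Of 72 list medians under other settings 4 changed sign. Pathway lists among these were ACTH and cyclic AMP signalling for recovery, -0.03 at a mean of 0.5 FPKM or more, and the transcription factors for recovery, -0.02 under quantile scaling and -0.01 at that mean; the fourth was endothelium for treated cells, -0.39 at that mean. No paired analysis was possible because the deposited columns hold 1 combined value per group. For the same reason no library could be left out. Depth limits what a value listed at 0 can show, and the recovery group was the shallowest.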

Other observations

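Near HSD3B2, at 87.0 kb, the lncRNA transcripts TCONS_00000620 and TCONS_00001644 share 1 locus and 1 set of values, 14.0 FPKM in treated and 185 FPKM in recovered cells, and were listed at 0 in control cells. Their q was 1 for treated and 0.152 for recovered cells in the authors' deposited table, and HSD3B2 itself was at 0 in all groups. Near FDX1, at 22.3 kb, 3 lncRNA transcripts share 16.5 FPKM in treated and 5.10 FPKM in recovered cells and were listed at 0 in control cells, with a q of 1 for both in the authors' deposited table.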
